A study of Mus musculus with 14 samples.

Results

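Bone matrix and mineralization genes were followed across cells sorted from the synovium, the tissue that lines the joint, of mouse knees with and without arthritis. The 10 genes are Spp1, Ibsp, Dmp1, Mepe, Bglap, Bglap2, Phex, Sparc, Mgp and Ifitm5. They were chosen by name from the 47729 mouse genes of the count table, and all 10 were found there by Ensembl identifier and passed the filter on low counts, which kept 15015 genes. Antigen-induced arthritis was started in C57BL6 mice, aged 16 weeks by the labels, by immunization against methylated bovine serum albumin in complete Freund's adjuvant, followed by injection of that protein into the joint. The 5 arthritic CD105+ samples hold CD51+ CD105+ cells without CD200 from these mice, and the 5 arthritic CD200+ samples hold CD51+ CD200+ cells without CD105. The 4 non-immunized CD200+ samples hold CD51+ CD200+ cells without CD105 from mice that received phosphate buffered saline in place of every injection. Cells bearing CD31, CD45 or TER119, which mark endothelial, blood and red cell lineages, were gated out in all 3 groups, and the joints were harvested 10 days after the last injection. Each sample was a pool of 200 to 500 live cells, amplified with the SMART-Seq v4 kit. The number of mice behind a sample is not given in the labels, so p-values measure the spread between these samples, which may in part be technical. Libraries carry the numbers of their labels, which run over 10 to 14 for arthritic CD105+, 5 to 9 for arthritic CD200+ and 1 to 4 for non-immunized CD200+ cells.

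Bone is laid down as a type I collagen scaffold that osteoblasts fill with acidic phosphoproteins and vitamin K-dependent proteins, which bind calcium and either promote or restrain the growth of mineral. As osteoblasts become buried and turn into osteocytes, they make less osteocalcin and more of the proteins that control mineral around them and phosphate in the body. Osteopontin, Sparc and matrix Gla protein are also made outside bone, in cartilage, vessel walls and fibroblasts, whereas bone sialoprotein, osteocalcin and Ifitm5 are textbook products of the osteoblast lineage, with bone sialoprotein also made in hypertrophic cartilage.

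Several of the genes sit side by side in the genome (GENCODE M21, GRCm38). Spp1 (ENSMUSG00000029304, chr5:104435118-104441050), Ibsp (ENSMUSG00000029306, chr5:104299171-104311469), Dmp1 (ENSMUSG00000029307, chr5:104202613-104214102) and Mepe (ENSMUSG00000053863, chr5:104325329-104338611) are protein-coding genes on the forward strand. With Dspp, they make up the small integrin-binding ligand N-linked glycoprotein family and span 270.3 kb. Bglap (ENSMUSG00000074483, chr3:88383501-88384464) and Bglap2 (ENSMUSG00000074486, chr3:88377736-88378699) lie on the reverse strand, and with Bglap3 they take up 15.8 kb. Their reference transcripts are nearly the same: 434 of 439 aligned bases were identical between Bglap and Bglap2 (98.9%), with one stretch of 241 identical bases, so reads can be shared between them and the split between the copies is uncertain. The other 4 genes stand apart on the reverse strand of their chromosomes: Phex (ENSMUSG00000057457, chrX:157162075-157415312), Sparc (ENSMUSG00000018593, chr11:55394500-55423183), Mgp (ENSMUSG00000030218, chr6:136872435-136875823) and Ifitm5 (ENSMUSG00000025489, chr7:140948958-140950291). Spp1 and Ifitm5 each overlap an exon of another annotated gene on the same strand, Gm42793 and Gm45717, so reads in the overlap cannot be assigned by strand.

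Promoters are shown for 3 of the genes whose transcripts fell in arthritic CD105+ cells, because they hold letters that the osteoblast regulator Runx2 is known to bind. RefSeq promoter sequence (GRCm38.p6) was matched for 8 of the 10 genes, in 10 windows, and the 250 bases before each start were searched. The RUNX core TGTGGT or its reverse complement ACCACA was found for 4 of those 8 genes (Spp1, Dmp1, Mepe and Bglap). Counted by window it was found in 4 of the 10, against 14% of all 32815 promoters. TATAAA or its reverse complement TTTATA was found for 4 of the 8 genes (Spp1, Ibsp, Mepe and Bglap), and in 4 of the 10 windows, against 12.4% of all promoters. A match is a description of letters and not a site of binding. The 150 bases that end next to the RefSeq start are printed 5′ to 3′ on the gene's strand, with the RUNX core and TATAAA in capitals, for Spp1 (chr5:104434961-104435110, forward), Mepe (chr5:104325179-104325328, forward) and Bglap (chr3:88384467-88384616, reverse).
Spp1: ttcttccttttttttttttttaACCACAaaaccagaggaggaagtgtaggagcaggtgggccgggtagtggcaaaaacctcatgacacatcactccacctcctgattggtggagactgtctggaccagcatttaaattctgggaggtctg
Mepe: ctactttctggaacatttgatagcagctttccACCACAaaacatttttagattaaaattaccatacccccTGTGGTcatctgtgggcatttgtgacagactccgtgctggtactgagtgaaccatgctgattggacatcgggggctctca
Bglap: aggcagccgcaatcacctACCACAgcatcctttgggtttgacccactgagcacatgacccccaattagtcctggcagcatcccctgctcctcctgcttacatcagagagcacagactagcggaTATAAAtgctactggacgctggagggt
Spp1 and Bglap each hold 1 RUNX core in the printed bases, from -128 to -123 in Spp1 and from -132 to -127 in Bglap, counted back from the transcription start. Mepe holds a match on each strand, from -118 to -113 and from -80 to -75. Bglap also holds TATAAA from -27 to -22.

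Total counts per library ran between 12177437 and 40331071, of which 20.3% to 92.0% were ERCC spike-ins, artificial RNAs added to the lysate. The 3 libraries over 80% were library 2 of the non-immunized CD200+ group and libraries 5 and 6 of the arthritic CD200+ group, and counts on mouse genes ran between 2919666 and 18553803. Levels are given in CPM, counts per 1000000 counts on mouse genes, with spike-ins left out and library sizes scaled by TMM (trimmed mean of M-values, edgeR). Cd200 transcripts followed the sort, at 0 in 4 of 5 arthritic CD105+ libraries, with medians of 402 CPM in arthritic CD200+ and 568 CPM in non-immunized CD200+ libraries. Eng, which encodes CD105, was low throughout, at medians of 9.02, 0.340 and 4.28 CPM in the same groups, with overlapping ranges. Haemoglobin transcripts took 2.71% to 18.3% of gene counts in arthritic CD105+ libraries, against 0.000490% to 1.07% in arthritic CD200+ and 0.114% to 0.977% in non-immunized CD200+ libraries, although TER119+ cells were gated out.

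The bone matrix transcripts separated the sorted populations. Together the 10 genes took 0.0114% to 0.507% of gene counts in arthritic CD105+ libraries, 3.05% to 4.89% in arthritic CD200+ libraries and 3.79% to 12.0% in non-immunized CD200+ libraries. Against arthritic CD200+ cells, 6 of the 10 fell in arthritic CD105+ cells (Spp1, Ibsp, Dmp1, Bglap, Phex and Ifitm5) and none rose, at a Benjamini-Hochberg adjusted p under 0.05 in the quasi-likelihood test of edgeR. Of all genes tested, 11.3% passed in that comparison, and 6.48% of all genes tested passed as lower. Against non-immunized CD200+ cells, 9 of the 10 fell in arthritic CD105+ cells (all but Mgp) and none rose, where 13.2% of all genes tested passed, and 7.63% of all genes tested passed as lower. Between arthritic and non-immunized CD200+ cells 0 of the 10 passed by edgeR, and so did 0% of all genes.

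The median log2 change of the 10 genes was -8.80 for arthritic CD105+ against arthritic CD200+ cells, or -8.69 with Mepe and Ifitm5 at the bound their counts of 0 allow. The median of all tested genes was -0.05. Against non-immunized CD200+ cells the members' median was -10.17, with or without those bounds, and that of all genes was -0.24. The comparisons are not independent: both CD105+ comparisons use the same arthritic CD105+ libraries, and each CD200+ group enters 2 comparisons. Scaling by spike-ins moved the median of all genes to 1.22 and 1.21 in the 2 CD105+ comparisons, while the members' medians were -6.83 and -8.31 and all 10 genes stayed below 0 in both. It also turned the split of all called genes to 390 higher and 155 lower against arthritic CD200+ cells, from 719 higher and 973 lower, and to 167 higher and 111 lower against non-immunized CD200+ cells, from 836 higher and 1146 lower. With size factors of the median ratio type, the split against non-immunized CD200+ cells was 669 higher and 1430 lower.

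**Figure D1:**
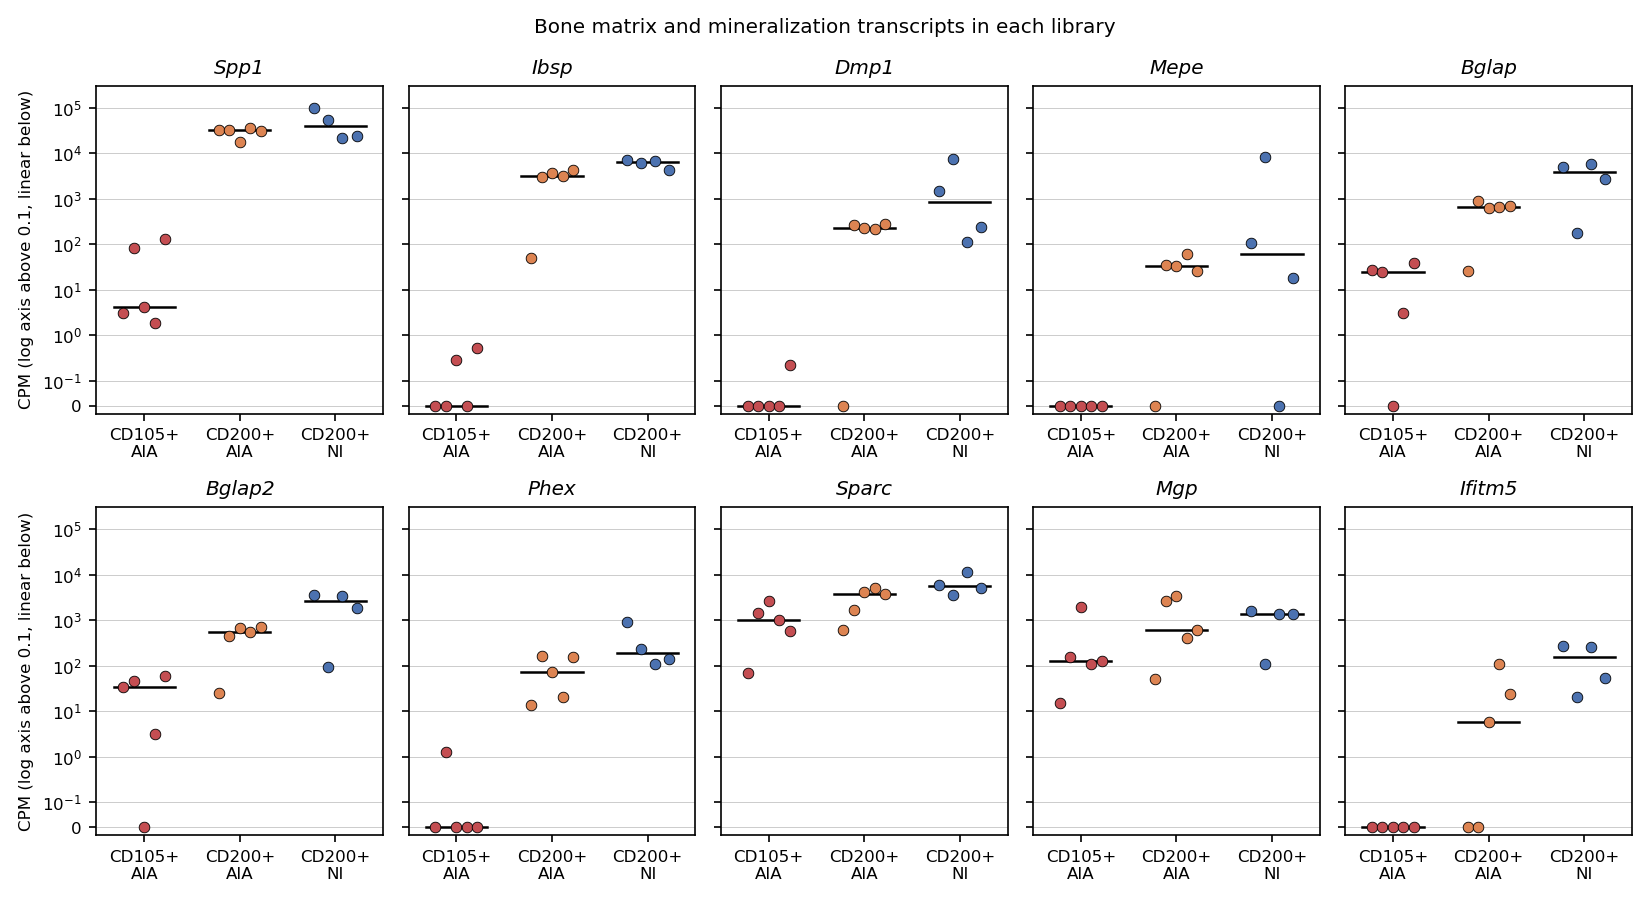
CPM of each gene in each library, on a log axis above 0.1 and a linear one below it, for arthritic CD105+ (CD105+ AIA, 5 libraries), arthritic CD200+ (CD200+ AIA, 5) and non-immunized CD200+ cells (CD200+ NI, 4); points are libraries in the order of their numbers and lines are medians. Spp1 and Ibsp separate the arthritic CD105+ libraries from all 9 CD200+ libraries, Mepe and Ifitm5 are at 0 in all 5 arthritic CD105+ libraries, and Mgp overlaps in all 3 groups.

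Spp1, Ibsp, Dmp1 and Mepe are the integrin-binding phosphoproteins of chromosome 5. Spp1 encodes osteopontin, an acidic phosphoprotein that binds integrins and CD44 and restrains mineral growth. It had 3.11, 81.9, 4.197, 1.82 and 128 CPM in arthritic CD105+ libraries 10 to 14, and 32267, 32645, 17438, 36317 and 30028 CPM in arthritic CD200+ libraries 5 to 9. In non-immunized CD200+ libraries 1 to 4 it had 99709, 54036, 22078 and 23685 CPM. Every arthritic CD105+ library lay below every CD200+ library, and Spp1 alone made up 1.75% to 3.82% of gene counts in arthritic CD200+ and 2.26% to 9.47% in non-immunized CD200+ libraries. The log2 change of arthritic CD105+ cells was -9.41 ± 1.35 (SE) against arthritic CD200+ cells (edgeR adjusted p = 0.000856) and -10.15 ± 1.40 against non-immunized CD200+ cells (edgeR adjusted p = 0.000646). These became -10.34 and -11.09 without library 14, and the second -9.52 without library 1. Between CD200+ groups the ranges overlapped, and the log2 change of -0.75 ± 0.99 (arthritic over non-immunized) had an edgeR adjusted p of 1.

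Ibsp encodes bone sialoprotein, which nucleates hydroxyapatite. It had 0, 0, 0.286, 0 and 0.515 CPM in arthritic CD105+ libraries 10 to 14, a sum of 10 counts, against 49.7, 2992, 3761, 3104 and 4356 CPM in arthritic CD200+ libraries 5 to 9. Non-immunized CD200+ libraries 1 to 4 had 7252, 5949, 6872 and 4211 CPM, the narrowest spread of the 10 genes in that group at 1.72-fold between lowest and highest. Arthritic CD105+ libraries again lay below all CD200+ libraries, and library 5 stood below the other CD200+ libraries. The log2 change of arthritic CD105+ cells was -13.98 ± 1.45 against arthritic CD200+ cells (edgeR adjusted p = 9.58e-05) and -15.07 ± 1.504 against non-immunized CD200+ cells (edgeR adjusted p = 8.02e-05), or -15.18 and -16.27 without library 14. Between CD200+ groups it was -1.09 ± 0.89 (edgeR adjusted p = 1).

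Dmp1 encodes dentin matrix protein, made by osteocytes and needed for mineral and phosphate balance. Its only counts in arthritic CD105+ cells were 3 in library 14 (0.221 CPM). Arthritic CD200+ libraries 5 to 9 had 0, 264, 231, 216 and 279 CPM, and non-immunized CD200+ libraries 1 to 4 had 1445, 7398, 112 and 244.5 CPM. Library 5, at 0, overlapped the CD105+ libraries. A count of 0 there allows up to 0.604 CPM (3 counts), far under the other 4 libraries of its group. Counts pooled over each group put Dmp1 4646-fold lower in arthritic CD105+ than in arthritic CD200+ cells (95% counting interval 1590 to 22530). Against non-immunized CD200+ cells the pooled ratio was 26593, with an interval of 9100 to 128952. These intervals cover counting error only. The non-immunized mean was 2300 CPM with library 2 and 600.5 CPM without it. Without library 2 the ratio of group means was 13612, which is another measure than the pooled ratio. Dmp1 fell in both comparisons, with an edgeR adjusted p of 0.00326 against arthritic CD200+ and 0.000985 against non-immunized CD200+ cells, and of 0.00054 to 0.0199 and 0.000198 to 0.00877 with 1 library left out. The fitted log2 change against non-immunized CD200+ cells was -15.27, and -13.33 without library 2 or -17.76 without library 14. Against arthritic CD200+ cells it was -11.73, and -14.23 without library 14.

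Mepe encodes matrix extracellular phosphoglycoprotein, an osteocyte product whose acidic peptide restrains mineral. No count was found in any arthritic CD105+ library, which allows up to 0.0477 CPM over the group (3 counts). Arthritic CD200+ libraries 5 to 9 had 0, 35.5, 33.5, 59.8 and 25.8 CPM, and non-immunized CD200+ libraries 1 to 4 had 104, 8316, 0 and 18.1 CPM. The non-immunized values rest on library 2, which alone held 8316 CPM, and the mean of the other 3 was 40.8 CPM. Arthritic CD105+ cells were at least 44259-fold lower than non-immunized CD200+ cells on group means, or at least 856-fold without library 2 (edgeR adjusted p = 0.0172 and 0.0323), and at least 648-fold lower than arthritic CD200+ cells, where the test was not passed (edgeR adjusted p = 0.0624). Without library 2, the edgeR adjusted p against arthritic CD200+ cells became 0.0320, without library 3 it became 0.0332, and with limma voom it was 0.00325. It also passed with a stricter filter, spike-in scaling or without the 3 libraries over 80% spike-ins (edgeR adjusted p = 0.0432, 0.0344 and 0.0302).

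Dmp1 and Mepe had the 2 largest log2 changes between arthritic and non-immunized CD200+ cells, -3.54 ± 1.38 and -6.09 ± 2.40, and the 2 lowest p-values of the 10 (edgeR unadjusted p = 0.0224 and 0.0297, adjusted p = 0.674 and 0.686). They are the 2 members with an unadjusted edgeR p under 0.05 in that comparison, where 6.09% of all genes had one. Without library 2, the log2 change of Dmp1 was -1.62 and that of Mepe was -0.42. Of the 10 genes, 9 had a log2 change below 0, where 54.2% of all genes did, and the members' median was -2.11 against -0.10 for all genes. All 10 overlapped between arthritic and non-immunized CD200+ libraries, where 1.18% of all genes were lower and 1.11% higher without overlap. DESeq2 called 304 genes in this comparison (1.85%) and limma voom 4 (0.0266%), none of them members.

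**Figure D2:**
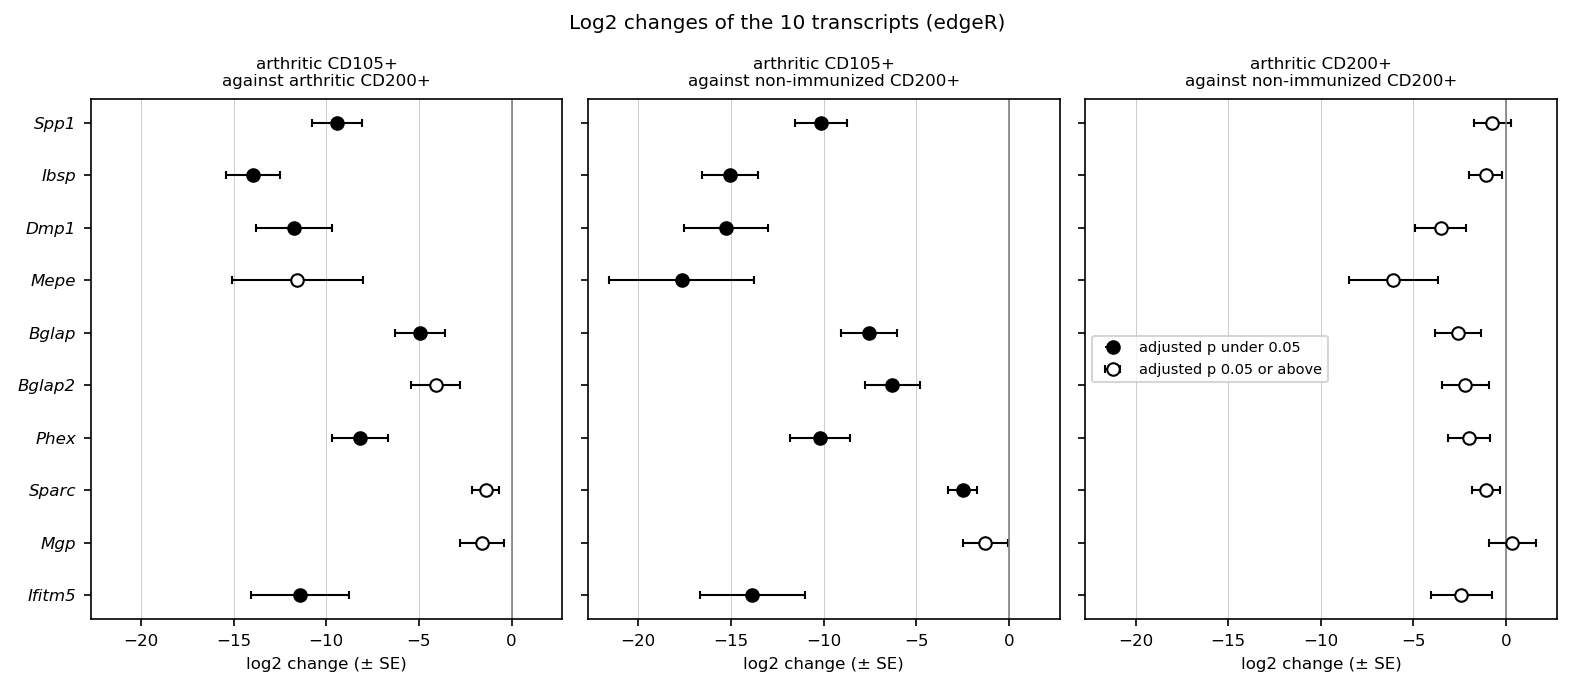
Fitted log2 change with its standard error (x axis) of each gene (rows) in the 3 comparisons, from 1 edgeR fit of 14 libraries; filled points have an adjusted p under 0.05. For Mepe and Ifitm5, at 0 in all arthritic CD105+ libraries, the fitted value in the 2 left panels depends on the fit's handling of 0 and is no measured size. All 20 points of the 2 left panels lie below 0, while 9 of 10 do in the right panel and none of those is filled.

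The vitamin K-dependent osteocalcins followed the phosphoproteins at smaller contrast. Bglap encodes osteocalcin, the main Gla protein of bone and a marker of mature osteoblasts. It had 27.7, 23.9, 0, 3.01 and 38.4 CPM in arthritic CD105+ libraries 10 to 14, against 26.2, 902, 612, 644 and 680 CPM in arthritic CD200+ libraries 5 to 9. Non-immunized CD200+ libraries 1 to 4 had 5052, 180.5, 5909 and 2643 CPM. Library 5 was as low as the CD105+ libraries, and library 2 was the lowest of the non-immunized ones. Bglap fell in arthritic CD105+ cells, with a log2 change of -4.95 ± 1.33 against arthritic CD200+ cells (edgeR adjusted p = 0.0289) and of -7.53 ± 1.51 against non-immunized CD200+ cells (edgeR adjusted p = 0.00634). The first call was lost without library 10, 11 or 13 (edgeR adjusted p = 0.0574, 0.0531 and 0.0638), with limma voom (adjusted p = 0.0944), with spike-in scaling (edgeR adjusted p = 0.195) and on the genes of the smaller deposited table (edgeR adjusted p = 0.0570). With spike-in scaling the second was lost too (edgeR adjusted p = 0.0576).

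Bglap2 encodes another osteocalcin. It had 34.4, 45.1, 0, 3.18 and 59.7 CPM in arthritic CD105+ libraries 10 to 14, and 25.2, 449, 660, 564 and 721 CPM in arthritic CD200+ libraries 5 to 9. Non-immunized CD200+ libraries 1 to 4 had 3596, 92.3, 3372 and 1851 CPM. As for Bglap, library 5 lay inside the range of the CD105+ libraries and library 2 was the lowest of the non-immunized ones. The log2 change of arthritic CD105+ cells was -4.09 ± 1.33 against arthritic CD200+ cells, which did not pass (edgeR adjusted p = 0.0617) but did without library 5 (edgeR adjusted p = 0.0472), with a stricter filter (edgeR adjusted p = 0.0429) and with DESeq2 (adjusted p = 0.0038). Against non-immunized CD200+ cells Bglap2 fell, with a log2 change of -6.29 ± 1.49 (edgeR adjusted p = 0.0145), a call lost with spike-in scaling (edgeR adjusted p = 0.107). With the counts of Bglap, Bglap2 and Bglap3 summed, so that the split of reads between copies plays no part, the log2 change was -4.41 against arthritic CD200+ cells (edgeR adjusted p = 0.0453) and -6.78 against non-immunized CD200+ cells (edgeR adjusted p = 0.0101). Between CD200+ groups Bglap had a log2 change of -2.59 ± 1.23, Bglap2 of -2.20 ± 1.26 and the sum of -2.37, with edgeR adjusted p-values of 0.842, 0.998 and 0.934.

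Mgp encodes matrix Gla protein, an inhibitor of calcification made by chondrocytes and vascular smooth muscle. It had 15.3, 157, 1941, 107 and 126.2 CPM in arthritic CD105+ libraries 10 to 14, against 49.9, 2706, 3340, 408.5 and 615 CPM in arthritic CD200+ libraries 5 to 9. Non-immunized CD200+ libraries 1 to 4 had 1631, 110, 1358 and 1400 CPM. All 3 groups overlapped. Mgp was the one member that passed in none of the 3 edgeR comparisons, with log2 changes of -1.60 ± 1.199 (arthritic CD105+ over arthritic CD200+, adjusted p = 0.448), -1.26 ± 1.24 (arthritic CD105+ over non-immunized CD200+, adjusted p = 0.551) and 0.34 ± 1.25 (arthritic over non-immunized CD200+, adjusted p = 1). Without library 12 the first was -3.81 and the second -3.47, with edgeR adjusted p-values of 0.0578 and 0.0692, and with limma voom on all libraries both passed (adjusted p = 0.0422 and 0.0286). The sign of the change between CD200+ groups turned without library 2, 6 or 7, at -0.05, -0.03 and -0.25.

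Markers of chondrocytes moved with Mgp in library 12. The summed level of 11 chondrocyte genes was 5789 CPM in library 12, against 16.9 to 24.0 CPM in the other 4 arthritic CD105+ libraries. Among arthritic CD200+ libraries the sum ran between 156 and 5233 CPM and was highest in library 7, which was also highest for Mgp. Library 5 was lowest for both. Library 6, the next highest for Mgp in that group, had a sum of 639 CPM, below the 780 CPM of library 9. In non-immunized CD200+ libraries the sum ran between 1217 and 20935 CPM. It was highest in library 3, whose Mgp lay below that of libraries 1 and 4, and library 2 was lowest for both. Col2a1, the main collagen of cartilage, had the highest group mean of the 11 in every group. In arthritic CD105+ cells that mean rests on library 12 alone (4275 CPM), with Col2a1 at 0 in the other 4 libraries. Col10a1 was at 0 in all arthritic CD105+ libraries. The part of cartilage cells in the Mgp values was not tested.

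**Figure D3:**
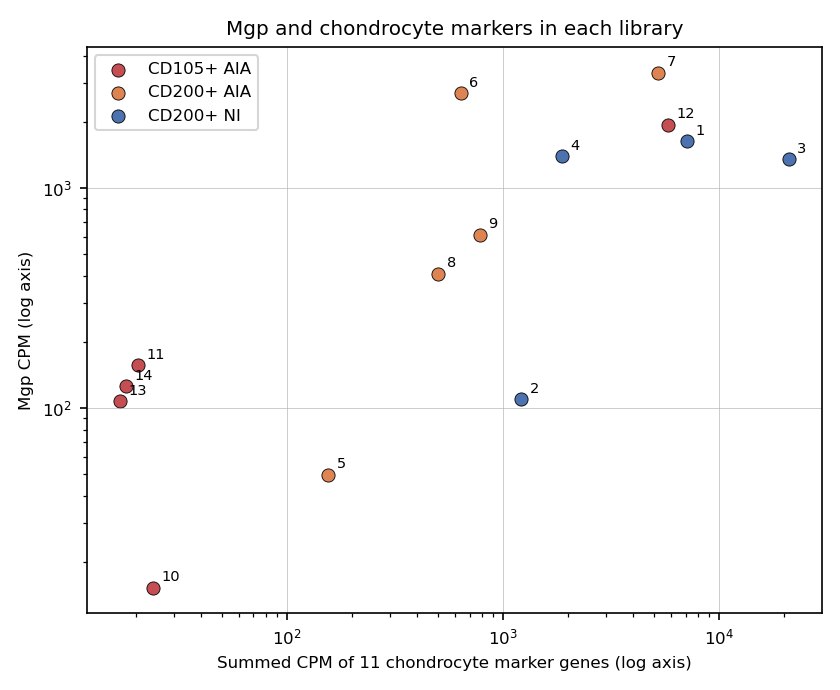
Mgp in CPM (y axis, log) against the summed CPM of 11 chondrocyte marker genes (x axis, log) in the 14 libraries, each marked by its number and coloured by group. Library 12 stands with the CD200+ libraries at 1941 CPM of Mgp and 5789 CPM of chondrocyte markers, apart from the other 4 arthritic CD105+ libraries.

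Sparc encodes osteonectin, a collagen-binding glycoprotein of bone and of many connective tissues. It had 70.8, 1406, 2657, 1024 and 590 CPM in arthritic CD105+ libraries 10 to 14, against 609, 1668, 4216, 5064 and 3677 CPM in arthritic CD200+ libraries 5 to 9. Non-immunized CD200+ libraries 1 to 4 had 5961, 3649, 11302 and 5081 CPM. Sparc was present in every library, and the arthritic CD105+ range ended below the non-immunized one. It fell in arthritic CD105+ cells against non-immunized CD200+ cells, with a log2 change of -2.499 ± 0.77 (edgeR adjusted p = 0.0471). That call was lost when any one of libraries 1, 2, 3, 4, 7, 8, 9, 11, 13 and 14 was left out (edgeR adjusted p from 0.0520 to 0.126). It was also lost with spike-in scaling, without a filter, with 2 groups in the fit and on the genes of the smaller deposited table (edgeR adjusted p = 0.484, 0.0669, 0.0612 and 0.0595). Against arthritic CD200+ cells the log2 change of -1.41 ± 0.72 did not pass (edgeR adjusted p = 0.236) except with limma voom (adjusted p = 0.00917), and between CD200+ groups it was -1.09 ± 0.75 (edgeR adjusted p = 1).

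Phex encodes a membrane-bound endopeptidase of osteoblasts and osteocytes that acts on acidic peptides of the phosphoproteins and whose loss causes phosphate wasting. It had 1.25 CPM in arthritic CD105+ library 11 and 0 in libraries 10, 12, 13 and 14. Arthritic CD200+ libraries 5 to 9 had 13.5, 166, 73.1, 20.5 and 157 CPM, and non-immunized CD200+ libraries 1 to 4 had 902, 233, 109 and 138 CPM. No arthritic CD105+ library reached the range of either CD200+ group. The log2 change of arthritic CD105+ cells was -8.19 ± 1.49 against arthritic CD200+ cells (edgeR adjusted p = 0.00441; -13.00 without library 11) and -10.19 ± 1.62 against non-immunized CD200+ cells (edgeR adjusted p = 0.00164; -15.00 without library 11 and -9.07 without library 1). Between CD200+ groups the log2 change was -2.01 ± 1.15 (edgeR adjusted p = 0.998), and -0.87 without library 1.

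Ifitm5 encodes a small membrane protein of mineralizing osteoblasts that is mutated in a form of brittle bone disease. No count was found in any arthritic CD105+ library, whereas arthritic CD200+ libraries 5 to 9 had 0, 0, 5.71, 111 and 23.4 CPM. Non-immunized CD200+ libraries 1 to 4 had 271, 20.65, 251.6 and 54.9 CPM. Libraries 5 and 6 shared the value of 0 with the CD105+ libraries, and no non-immunized library did. On group means Ifitm5 was at least 587-fold lower in arthritic CD105+ than in arthritic CD200+ cells (edgeR adjusted p = 0.0230) and at least 3138-fold lower than in non-immunized CD200+ cells (edgeR adjusted p = 0.0119). The first rests largely on library 8, without which the bound was at least 152.5-fold, with an edgeR adjusted p of 0.0359. Between CD200+ groups the log2 change was -2.41 ± 1.66 (edgeR adjusted p = 1), and -4.34 without library 8.

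Counted by ranges, 3 of the 10 genes (Spp1, Ibsp and Phex) were lower in every arthritic CD105+ library than in any arthritic CD200+ library, where 6.33% of all genes were. Against non-immunized CD200+ libraries, 8 of the 10 were lower without overlap (all but Mepe and Mgp), where 11.5% of all genes were. In these sorted pools fewer cells of a type and less RNA per cell cannot be told apart. Without the 3 libraries over 80% spike-ins, 8 of the 10 fell against arthritic CD200+ cells, 9 against non-immunized CD200+ cells, and 0 passed between CD200+ groups (edgeR). In the same fit, 7.32% and 10.1% of all genes tested passed as lower in the 2 CD105+ comparisons, 12.4% and 18.2% passed in either direction, and 0 genes passed between CD200+ groups.

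Levels per kilobase of exon put Spp1 first in both CD200+ groups. It averaged 18046 ± 4391 CPM per kb (SD, n = 5) in arthritic CD200+ cells and 30265 ± 22044 CPM per kb (SD, n = 4) in non-immunized CD200+ cells, and its lowest library lay above the highest library of the next gene in each group. In arthritic CD200+ cells Ibsp, Mgp, Bglap2, Bglap and Sparc followed at means between 804 and 1379 CPM per kb, with overlapping ranges. A gap then separated Sparc from Dmp1, Ifitm5, Mepe and Phex, whose means lay between 13.7 and 71.6 CPM per kb and whose ranges overlapped from one to the next. In non-immunized CD200+ cells Bglap and Bglap2 came next, at 5576 ± 4173 and 4730 ± 3442 CPM per kb (SD, n = 4). From there to Phex, the last at 54.9 ± 59.6 CPM per kb, each gene overlapped the next. In arthritic CD105+ cells Mgp at 395 ± 694 and Sparc at 304 ± 258 CPM per kb (SD, n = 5) led, though Mgp exceeded Sparc in 1 of 5 libraries. Bglap2, Bglap and Spp1 followed at means between 26.5 and 60.5 CPM per kb, with overlapping ranges. The remaining 5 genes were under 0.1 CPM per kb on average, and the lowest Spp1 library (1.10 CPM per kb) was above the highest Ibsp library (0.249 CPM per kb).

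The 9 CD200+ libraries differed among themselves by which bone genes they held. Library 5 had the lowest value of 9 of the 10 genes, tied at 0 with library 3 for Mepe and with library 6 for Ifitm5. The exception was Spp1, which stood at 32267 CPM there. Library 1 was the highest for 5 genes (Spp1, Ibsp, Bglap2, Phex and Ifitm5). Library 2 was the highest for the osteocyte products Dmp1 (7398 CPM) and Mepe (8316 CPM), while its Bglap of 180.5 CPM and Bglap2 of 92.3 CPM were the lowest of the non-immunized group. Library 3 showed the reverse, with the highest Bglap (5909 CPM) and Sparc (11302 CPM), no Mepe and the lowest Dmp1 of its group (112 CPM). Libraries 6 to 9 were close for Dmp1, between 216 and 279 CPM. Among other osteocyte genes, Irx5 was highest in library 2 (146 CPM), whereas Pdpn had its lowest CD200+ value there (39.8 CPM) and its highest in library 5 (199.7 CPM). Ptprz1 (498 CPM) and Sost (9.37 CPM) were highest in library 1. Sost, which encodes sclerostin, was at 0 in the other 13 libraries, and the osteocyte hormone gene Fgf23 was at 0 in all 14. Libraries 2, 5 and 6 are the ones with over 80% spike-ins, and the part of RNA input in these differences was not tested.

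**Figure D4:**
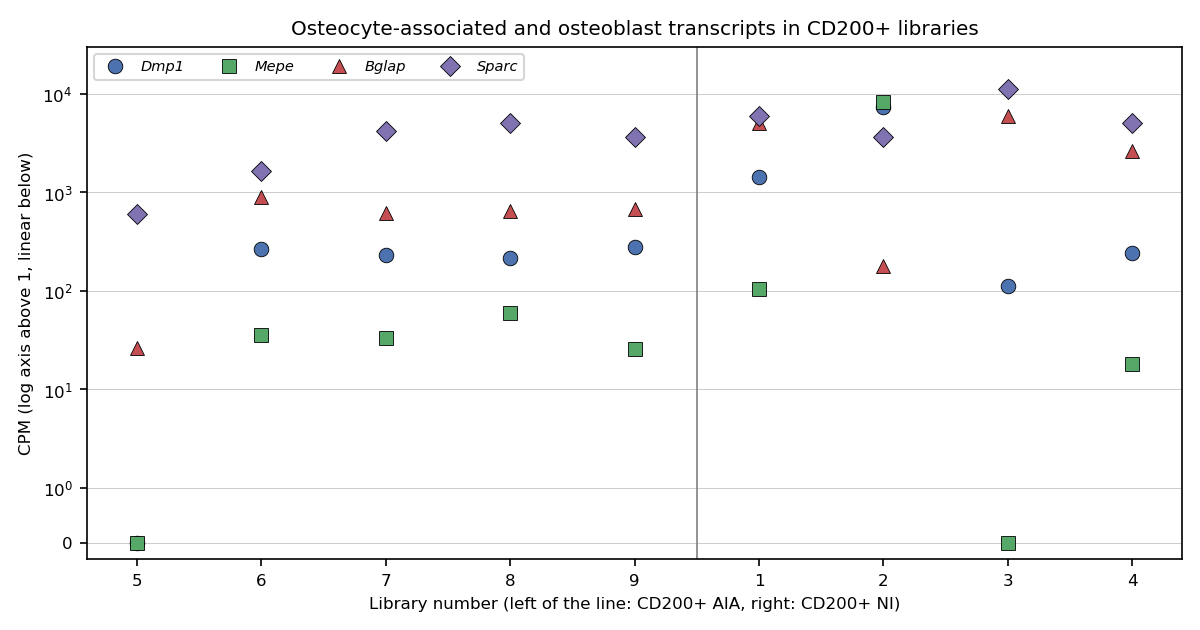
Dmp1, Mepe, Bglap and Sparc in CPM (y axis, log above 1 and linear below) in the 9 CD200+ libraries (x axis, by number), arthritic left of the line and non-immunized right of it. Library 2 is high for Dmp1 and Mepe and low for Bglap, library 3 has the highest Bglap and no Mepe, and library 5 is the lowest for all 4, with Dmp1 and Mepe drawn over each other at 0 and library 3 tied for Mepe.

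Genes that act around these proteins were counted in the same comparisons. Of 64 genes in 7 lists of regulators, mineral handling, collagen assembly, processing enzymes, osteocyte genes, receptors and relatives, 56 were tested. Against arthritic CD200+ cells 15 of the 56 (26.8%) fell in arthritic CD105+ cells and none rose with edgeR, where 6.48% of all genes tested passed as lower. Against non-immunized CD200+ cells 21 (37.5%) fell and none rose with edgeR, where 7.63% of all genes tested passed as lower. Between CD200+ groups 0 passed with edgeR, DESeq2 or limma voom. An unadjusted edgeR p under 0.05 was found for 5 of the 56. Of all genes tested 6.09% had one, so a count of 5 is near that share and no result about the lists. The median log2 change of the 56 was -2.10, -2.82 and -0.88 in those comparisons, with genes at 0 set to their bound, against -0.05, -0.24 and -0.10 for all genes tested.

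Osteoblast regulators fell for 3 of 7 tested genes in both CD105+ comparisons, where 6.48% and 7.63% of all genes passed as lower. Runx2, the transcription factor that commits cells to the osteoblast lineage, was at 0 in all 5 arthritic CD105+ libraries, at least 1069-fold lower than the mean of 51.0 ± 52.2 CPM in arthritic CD200+ (SD, n = 5) and at least 1828-fold lower than that of 87.1 ± 56.6 CPM in non-immunized CD200+ cells (SD, n = 4). Sp7, which encodes osterix, averaged 0.153 ± 0.341 CPM in arthritic CD105+ cells, against 33.9 ± 27.2 CPM in arthritic CD200+ and 108 ± 24.4 CPM in non-immunized CD200+ cells. Runx2 was also at 0 in arthritic CD200+ libraries 5 and 6, and Sp7 in library 5. Both genes therefore overlapped between the arthritic groups. The edgeR adjusted p was 0.0148 for Runx2 and 0.0109 for Sp7 against arthritic CD200+ cells, and 0.0111 for Runx2 and 0.00495 for Sp7 against non-immunized CD200+ cells. Among osteocyte genes 3 of 3 tested fell in both: Ptprz1, a receptor phosphatase at 0 in arthritic CD105+ cells against 56.9 ± 23.8 and 170.5 ± 220 CPM, Pdpn, which encodes podoplanin, and Irx5.

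Mineral handling genes fell for 1 of 8 tested against arthritic CD200+ cells and 2 of 8 against non-immunized CD200+ cells. With 6.48% and 7.63% of all genes lower in these comparisons, counts of 1 or 2 in a list of this size are no result about the list. Alpl, the tissue-nonspecific alkaline phosphatase that frees phosphate for mineral, averaged 0.148 ± 0.330 CPM in arthritic CD105+ cells, against 108 ± 86.4 CPM in arthritic CD200+ and 363 ± 232 CPM in non-immunized CD200+ cells (edgeR adjusted p = 0.00215 and 0.000969). Ank, which exports pyrophosphate, passed against non-immunized CD200+ cells only, with a log2 change of -2.28 ± 0.64 (edgeR adjusted p = 0.0328). Slc20a2, a phosphate transporter, had log2 changes of -2.48 and -2.57 with edgeR adjusted p-values of 0.110 and 0.1004.

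Collagen assembly genes fell for 1 of 10 against arthritic CD200+ cells and 6 of 10 against non-immunized CD200+ cells, where 6.48% and 7.63% of all genes passed as lower, so the count of 1 is near the share over all genes. Col1a2, a chain of type I collagen, averaged 687 ± 403 CPM in arthritic CD105+ cells, against 2929 ± 2122 CPM in arthritic CD200+ cells (edgeR adjusted p = 0.0915) and 9673 ± 4749 CPM in non-immunized CD200+ cells (edgeR adjusted p = 0.0100). Plod2, a lysyl hydroxylase, and Serpinh1, a collagen chaperone, fell against non-immunized CD200+ cells, with log2 changes of -3.46 ± 0.71 and -3.02 ± 0.65 (edgeR adjusted p = 0.00702 and 0.00906). Processing enzymes fell for 2 of 9 and 4 of 9, beside the same shares over all genes. Fam20c, the kinase that phosphorylates these matrix proteins, fell, with log2 changes of -4.86 ± 1.12 against arthritic CD200+ cells (edgeR adjusted p = 0.0144) and -5.71 ± 1.18 against non-immunized CD200+ cells (edgeR adjusted p = 0.00744). Vkorc1, which recycles the vitamin K that osteocalcin and Mgp need, fell in both, with log2 changes of -1.49 ± 0.40 and -1.86 ± 0.42 (edgeR adjusted p = 0.0305 and 0.0122). Bmp1, a protease that cuts Dmp1 and procollagen, fell, with a log2 change of -2.19 ± 0.50, against non-immunized CD200+ cells (edgeR adjusted p = 0.0119) and had a log2 change of -0.82 against arthritic CD200+ cells (edgeR adjusted p = 0.288).

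Receptors fell for 2 of 9 in each CD105+ comparison, where 6.48% and 7.63% of all genes passed as lower, and counts this small are no result about the list. Itgb1, the shared beta chain of many integrins, averaged 144.5 ± 31.3 CPM in arthritic CD105+ cells, against 359 ± 104 CPM in arthritic CD200+ (edgeR adjusted p = 0.00604) and 388 ± 85.8 CPM in non-immunized CD200+ cells (edgeR adjusted p = 0.00420). Itga8 was at 0 in arthritic CD105+ libraries, against 33.1 ± 25.1 and 24.7 ± 24.1 CPM (edgeR adjusted p = 0.00824 and 0.00842). Itga4, which also binds osteopontin, averaged 133 ± 32.8 CPM in arthritic CD105+ cells, against 3.11 ± 4.81 and 2.86 ± 4.67 CPM, and was higher in all 5 libraries without passing the test (edgeR adjusted p = 0.0684 and 0.0817). Of the relatives of the 10 genes, 3 of 10 tested fell against arthritic CD200+ cells and 1 of 10 against non-immunized CD200+ cells, the second near the 7.63% of all genes that passed as lower there. Bglap3, the remaining osteocalcin copy, fell in both, with log2 changes of -4.11 ± 1.21 and -6.21 ± 1.35 (edgeR adjusted p = 0.0427 and 0.00968). Ifitm3, the antiviral relative of Ifitm5, fell against arthritic CD200+ cells, with a log2 change of -2.19 ± 0.39 (edgeR adjusted p = 0.00385). Spock3, a relative of Sparc, was at 0 in arthritic CD105+ libraries and fell against arthritic CD200+ cells (edgeR adjusted p = 0.0406).

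Cell type markers did not all move with the bone genes. By median, osteoblast sums were lowest in arthritic CD105+ libraries, whereas erythroid and osteoclast sums were highest there, the latter led by Acp5. The summed level of 8 osteoblast identity genes ran between 57.3 and 1366 CPM in arthritic CD105+ libraries, with Runx2 at 0 in all of them. It ran between 349 and 8796 CPM in arthritic CD200+ libraries, with library 5 lowest, and between 5436 and 21217 CPM in non-immunized CD200+ libraries, with library 2 lowest. Col1a2 led the sum in all 3 groups. The sums of 8 erythroid genes were 26740 to 246799 CPM in arthritic CD105+, 4.23 to 10360 CPM in arthritic CD200+ and 1169 to 10151 CPM in non-immunized CD200+ libraries. Macrophages and osteoclasts are known sources of osteopontin. The 9 macrophage genes summed to 5838 CPM in library 11, against 4.22 to 16.8 CPM in the other arthritic CD105+ libraries, 0 to 260 CPM in arthritic CD200+ and 0 to 283.5 CPM in non-immunized CD200+ libraries. Spp1 was 81.9 CPM in library 11, and 128 CPM in library 14, whose macrophage sum was 16.8 CPM. The 8 osteoclast genes summed to 352 to 549 CPM in arthritic CD105+, 61.6 to 446 CPM in arthritic CD200+ and 97.9 to 605 CPM in non-immunized CD200+ libraries, with Dcstamp at 0 in every library. The part of these cell types in the results was not tested.

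Sums of the other lists also differed. The 8 mural cell genes, from the cells that wrap small vessels, summed to 3.77 to 305 CPM in arthritic CD105+, 684 to 1835 CPM in arthritic CD200+ and 498 to 1393 CPM in non-immunized CD200+ libraries, with Acta2 the highest gene. The 7 skeletal muscle genes summed to 0.119 to 11.0 CPM, 398.5 to 834 CPM and 191 to 724 CPM in the same groups, led by the satellite cell gene Pax7 in both CD200+ groups. The 4 synovial lining genes summed to 34.3 to 5565 CPM, 0 to 2015 CPM and 0.819 to 245 CPM, and the 6 sublining genes to 47.7 to 127 CPM, 127 to 655 CPM and 169 to 500 CPM. Endothelial sums stayed under 125 CPM in all libraries. B and plasma cell sums were 0 to 63.6 CPM, 0 to 28.5 CPM and 31.4 to 1632 CPM, and neutrophil sums were 0 to 1019 CPM, 0 to 113.5 CPM and 4.84 to 3758 CPM, both highest in library 3.

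Of 9541 genes with a mean of at least 10 CPM, members included, 5 non-members had the profile over the 14 libraries nearest to the members' mean profile. They were Slit2, Ptgis, Sp7, Cdh2 and Sema5a, at a mean absolute difference of 0.672, 0.716, 0.716, 0.724 and 0.751 on the centred log2(CPM + 1) scale. Slit2 averaged 0.0239 ± 0.0534 CPM in arthritic CD105+, 42.2 ± 32.5 CPM in arthritic CD200+ and 195 ± 141 CPM in non-immunized CD200+ cells. Of the members, Phex lay nearest to the mean profile, at 0.660, and Ibsp, Spp1 and Mgp lay farthest, at 2.30, 2.27 and 2.07.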

How the data were processed

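RNA-seq of 14 pools of sorted synovial cells was used as 1 count table of 47821 entries, 92 of them ERCC spike-ins. Values are whole-number counts per Ensembl gene, deposited by the authors without scaling. A second deposited table holds 14322 of the same entries with identical counts. Per the submitters' processing notes, GRCm38 (mm10) was the build, and the tools were edgeR, StringTie, HISAT2 and cutadapt. For these no version, strand setting or multi-mapping rule is given. Genes were named from GENCODE M21.

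Spike-ins were left out, and genes were kept by edgeR's filterByExpr with a count minimum of 10. A single quasi-likelihood fit covered all 3 groups (14 libraries), with TMM factors (edgeR 4.0.16, R 4.3.3, robust option), tested on simulated counts. P-values are two-sided and Benjamini-Hochberg adjusted over 15015 genes, at a threshold of 0.05, and SEs were derived from the F statistic. Alternatives were RLE and spike-in scaling, other filters, fits of 2 groups, no robust option, summed osteocalcin counts, DESeq2 1.42.0, limma 3.58.1 voom weighted by sample, and omission of each library. Gene counts of 2919666 to 18553803 per library put the floor of 3 counts between 0.170 and 0.910 CPM. The named genes are the 10 members, the 3 genes of lowest p in each list, each marker list's sum and leading gene, and the 5 nearest profiles, except 1 list gene that is not reported here. The members and lists were chosen with earlier results of these data known.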

Additional observations from a re-analysis of the deposited data

Results flagged for a closer look

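Of 28 gene and group combinations examined, 7 held a library far from the rest of its group. Chance flags about 1 in 20 groups, a rate that holds for normally distributed values, whereas CPM values are skewed and include zeros. In non-immunized CD200+ cells, Mepe stood at 8316 CPM in library 2, with the other 3 libraries between 0 and 104 CPM, and Phex stood at 902.1 CPM in library 1, with the others between 109 and 233 CPM. In arthritic CD200+ cells, Dmp1 was 0 CPM in library 5, where the others had 216 to 279 CPM, and Ifitm5 was 110.9 CPM in library 8, where the others had 0 to 23.4 CPM. In arthritic CD105+ cells, Mgp was 1941 CPM in library 12, against 15.3 to 157 CPM in the others. Phex at 1.254 CPM in library 11 and Dmp1 at 0.2206 CPM in library 14 were the only values above 0 of their genes in that group, so they stand apart by construction.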

How the results depend on the processing

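No paired analysis was possible because the labels number the samples in 1 series and do not say which came from the same mice. Whether arthritic CD105+ and CD200+ samples share mice is therefore not known. Every log2 change fitted for the 10 genes in the CD105+ comparisons was below 0. Fits of 2 groups filtered out Dmp1, Mepe and Ifitm5 against arthritic CD200+ cells and Mepe against non-immunized CD200+ cells, DESeq2 gave Mepe no adjusted p, and summed osteocalcins gave Bglap and Bglap2 no values of their own. With all 10 tested, 5 to 8 were called against arthritic CD200+ cells (5 to 7 with 1 library left out) and 6 to 10 against non-immunized CD200+ cells (8 to 9). With 2 groups in the fit, 4 of 7 and 7 of 9 were called. Between CD200+ groups none of them was called under any alternative run. The libraries left out in turn left at least 3 per group. Over all genes, the 1692 calls for arthritic CD105+ against arthritic CD200+ cells became 545 with spike-in scaling, 3550 with DESeq2 and 4624 with limma voom, and ran from 1090 (without library 14) to 1794 with 1 library left out. The 1982 calls against non-immunized CD200+ cells became 278, 4085 and 4993, and ran from 1308 (without library 14) to 2394. Between CD200+ groups the 0 calls became 304 with DESeq2 and 4 with limma voom, and ran from 0 to 2 (without library 3). The 15 pathway genes called against arthritic CD200+ cells became 6, 26 and 29 with spike-in scaling, DESeq2 and limma voom, and the 21 against non-immunized CD200+ cells became 6, 34 and 35. With DESeq2 and limma voom, 1 of the called pathway genes was higher in arthritic CD105+ cells in each comparison. With spike-in scaling none was higher. The sign turned in 6 cases, all between CD200+ groups and none called: Mepe at 2.48 with limma voom, and Mgp at -0.33 with limma voom, -0.05, -0.03 and -0.25 without library 2, 6 or 7 (0.65 at the highest, without library 5), and -0.017 without the 3 libraries over 80% spike-ins. Leaving out those 3, and testing the genes of the smaller deposited table, were chosen after seeing the data. The causes were not tested.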

Other observations

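Within the osteocalcin genes, the share of Bglap in the summed counts of Bglap, Bglap2 and Bglap3 differed between groups, a pattern looked at after the values were seen. It was 35.6%, 25.9%, 34.2% and 30.0% in arthritic CD105+ libraries 10, 11, 13 and 14, while library 12 had 1 count in all and gave no share. In arthritic CD200+ libraries 5 to 9 it was 41.4%, 56.2%, 39.4%, 43.4% and 37.5%, and in non-immunized CD200+ libraries 1 to 4 it was 49.1%, 55.5%, 53.6% and 49.7%. The widest 95% Wilson interval, 27.2% to 42.0%, belonged to library 13 with 155 counts. Means were 31.4% ± 4.40 (SD, n = 4), 43.6% ± 7.41 (SD, n = 5) and 52.0% ± 3.06 (SD, n = 4) in that order of groups. Exact two-sided permutation tests of the 3 pairs gave p = 0.0159 for arthritic CD105+ against arthritic CD200+, p = 0.0286 for arthritic CD105+ against non-immunized CD200+, the smallest that 4 against 4 allows, and p = 0.0952 for arthritic against non-immunized CD200+ libraries. Adjusted over the 3 by Benjamini-Hochberg the exact permutation p-values were 0.0429, 0.0429 and 0.0952. With 1 library left out the difference of arthritic CD105+ from arthritic CD200+ libraries stayed between -13.7 and -9.00 percentage points, with exact permutation p from 0.0286 to 0.0357. The other CD105+ difference stayed between -22.0 and -18.7 percentage points, with an exact permutation p of 0.0571, the smallest that 3 against 4 allows. Between arthritic and non-immunized CD200+ libraries it ran from -11.6 (without library 6) to -6.89 percentage points (without library 9), with exact permutation p from 0.0286, without library 6, to 0.179. Library 6, at 56.2%, stood above the other 4 arthritic CD200+ libraries. How reads shared by the near-identical copies were assigned is not known here, and its part in these shares was not tested.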
